A study of Drosophila melanogaster with 84 samples.

Results

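Transcript levels of the abdominal fat body were compared between dawn and dusk in wild-type females kept on a restricted diet at 25°C. The 12 libraries of this comparison were chosen by their labels from the 84 libraries of the series. The dawn group held 6 libraries collected around lights-on, at ZT22, ZT24 and ZT02, and the dusk group held 6 collected around lights-off, at ZT10, ZT12 and ZT14, with 2 replicates at each time point. ZT is zeitgeber time, the hours since lights-on in a cycle of 12 h light and 12 h dark, and ZT24, as the sample titles number it, was taken as the moment of lights-on. The sampling protocol numbers its times differently, from ZT0 to ZT22, and the titles were followed. Both groups were young mated *w1118* females, about 3 days old at the start, entrained for 5 days on 5% (w/v) sucrose and yeast (5SY). The sample titles call this diet Low Calorie and place every library on Day 5. Each library was made from the abdominal fat tissue of 10 pooled flies, with the gut, ovaries and Malpighian tubules removed and the fat left on the epidermis collected. Flies came from 2 incubators with opposite light schedules so that all dissections fell in the daytime, and which incubator supplied which library was not analysed here.

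Other groups served as side comparisons. These were 8 further libraries of the same 5SY flies at ZT20 and ZT04 (4 libraries, on either side of dawn) and at ZT08 and ZT16 (4 libraries, on either side of dusk), 12 dawn and dusk libraries of *w1118* females on 15% sucrose and yeast (15SY, the control diet) at 25°C, and 8 dawn and dusk libraries of *Clk-Jrk* females on 15SY at 25°C. *Clk-Jrk* carries a dominant mutant allele of *Clock* and was backcrossed 7 times to *w1118*. It differs from the 5SY flies in both genotype and diet, and these cannot be told apart.

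In the fly clock, the CLOCK (CLK) and CYCLE (CYC) proteins form an activator that switches on *per*, *tim*, *vri*, *Pdp1* and *cwo* towards the end of the day. PER and TIM then return to the nucleus at night and block that activator, while VRI represses and PDP1 activates *Clk* in another loop, and CRY resets the clock by light. The fat body joins the roles of vertebrate liver and adipose tissue, and its own clock is known to time feeding and metabolic genes.

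The values were TPM, a transcript level corrected for length and scaled to the same sum in each library. Such values carry no counts of reads, and the sequencing depth behind them is unknown. A median TPM above 5 across all 24 libraries of the 5SY flies was required for testing, and 6653 features met it, 6637 of them FlyBase genes. Pairs of replicates at a time point correlated between 0.896 and 0.953 across features, with a median of 0.924, and 12176 to 14512 features were above 0 per library. One library stood apart. In the dawn library of replicate 1 at ZT02, nuclear 18S and 28S ribosomal RNA features took 34.7% of all TPM, against 0.43% to 0.789% in the other 5 dawn libraries and 0.129% to 1.33% in the 6 dusk libraries. Mitochondrial genome features took 18.2% and 14.2% in the other 2 dawn libraries of replicate 1, against at most 11.9% in the dusk libraries. Because TPM is a share, the other genes of such a library are scaled down, and the called genes and the lists described at length are therefore given with and without the ZT02 library.

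The tissue label was checked against marker genes. Fat body markers, led by the yolk protein genes *Yp1*, *Yp2* and *Yp3*, summed to 57281 to 86715 TPM at dawn and 70613 to 88914 TPM at dusk, and 9 of 12 had a median above 5. Oenocyte markers, led by *Cyp4g1*, summed to 22498 to 53807 TPM at dawn and 31012 to 49741 TPM at dusk, and muscle markers to 2397 to 4532 TPM at dawn and 3164 to 4820 TPM at dusk. Gut markers, led by the trypsin genes, ranged from 8.16 to 204 TPM at dawn and from 7.35 to 9612 TPM at dusk. The dusk libraries of replicate 2 at ZT10 and replicate 1 at ZT12 held the highest sums, 9612 and 4121 TPM. The difference of the log2 sums was -2.96. Within replicate 1 the gut sums did not overlap, with 8.16 to 81.5 TPM at dawn, against 278 to 4121 TPM at dusk. Within replicate 2 they did, with 16 to 204 TPM, against 7.35 to 9612 TPM. Ovary markers ranged from 63.6 to 1050 TPM at dawn and from 2.83 to 2535 TPM at dusk. No marker of these 5 lists was at 0 in every library, and the groups overlapped for all 5 sums, with exact permutation p-values from 0.15 to 0.54. Medians above 5 were also found for 8 of 8 oenocyte, 15 of 17 muscle, 7 of 12 ovary and 3 of 14 gut markers. Of other lists, Malpighian tubule markers summed to 244 to 534 TPM at dawn and 218 to 554 TPM at dusk, with 8 of 8 above 5. Hemocyte markers summed to 292 to 474 TPM at dawn and 299 to 603 TPM at dusk, with 7 of 8 above 5. Neuron, cuticle and spermatheca markers had 0 of 6, 1 of 7 and 0 of 3 above 5. The part of these other tissues in the results was not tested. In bulk tissue, fewer cells of a type and less RNA per cell cannot be told apart.

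Between dawn and dusk, 12 genes differed at a Benjamini-Hochberg adjusted p below 0.05 in limma, with the replicate number as a block. They were 0.18% of the genes tested, 6 higher at dawn (0.0902%) and 6 lower at dawn (0.0902%). Higher at dawn were *geko*, *mir-2494*, *GstZ2*, *CG10096*, *ple* and *CG34180*, and lower at dawn were *ELOVL*, *CG10345*, *MtnD*, *vri*, *GstT4* and *CG34327*. At an unadjusted p below 0.05, 482 genes differed (7.24%), of which 56 were higher (0.842%) and 426 were lower (6.4%), and the median difference over all genes tested was -0.07 on the log2 scale, with 33.4% of genes on the positive side. That imbalance depended on scaling. With libraries scaled by the median of ratios, 338 genes were higher and 373 lower at an unadjusted p below 0.05, and 10 higher and 3 lower passed the adjusted threshold, 8 of the 12 genes among them. Without the ZT02 library of replicate 1, 170 were higher and 305 lower unadjusted, 12 higher and 5 lower passed, 9 of the 12 genes among them, and 54% of genes were on the positive side. Without the replicate block, 3 were higher and 3 lower, all of them among the 12. With 1 of the 12 libraries left out in turn, 2 to 12 genes were higher and 2 to 8 lower. The total was 5 without the dusk library at ZT12 of replicate 1, that of replicate 2 or the dawn library at ZT22 of replicate 1, 6 without the dawn library at ZT24 of replicate 1 or the dusk library at ZT14 of replicate 2, and 7 without the dusk library at ZT14 of replicate 1 or the dawn library at ZT24 of replicate 2. Within replicate 1 alone (3 libraries against 3) 1 gene was higher and 3 were lower. Of these 4, only *geko* was among the 12. The 3 lower genes, named after their values were seen, were *CG34330*, *Jon65Aiii* and *Jon65Aiv*. Other genes with the prefix Jon were on the gut marker list. The gut marker sums of replicate 1 were also lower in every dawn library than in every dusk library. The part of gut tissue in these calls was not tested. Within replicate 2 alone none passed in limma (163 higher and 102 lower at an unadjusted p below 0.05). All 12 genes kept their sign in both replicates. The calls of *geko*, *ELOVL*, *CG10345* and *mir-2494* held in each of the 12 omissions, that of *MtnD* in 10, that of *vri* in 7, and those of the other 6 genes in 2 to 4. Of 35 alternative settings, the call of *mir-2494* held in 26, those of *MtnD* and *vri* in 21 each and that of *GstZ2* in 13. Those of *CG10096*, *CG34180* and *GstT4* held in 11 each, that of *CG34327* in 5 and that of *ple* in 10 of 33.

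*geko*, a gene described for its part in olfaction (FBgn0020300, chromosome 3L from 18139402 to 18145418), had the smallest p of all genes. Its lowest, median and highest levels were 41.9, 51.1 and 69.5 TPM in the 6 dawn libraries, against 10.9, 12.5 and 14.8 TPM in the 6 dusk libraries. Every dawn library was far above every dusk library, and the dusk libraries lay close together. The difference of log2(TPM + 1), dawn minus dusk, was 1.94 ± 0.15 (SE, n = 6 and 6, limma adjusted p = 1.42e-05), a 3.83-fold higher level. It was 1.95 without the ZT02 library of replicate 1 and passed in 33 of 35 alternative settings, including the omission of each of the 12 libraries in turn. Over the day its mean level was highest at ZT04, with 70.6 TPM, and lowest at ZT12, with 11.7 TPM.

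Both genes called among the 23 glutathione S-transferases tested moved in opposite directions. Glutathione S-transferases (GSTs) attach glutathione to their substrates, and the zeta class is known as maleylacetoacetate isomerase, an enzyme of tyrosine breakdown. *GstZ2* (FBgn0037697, chromosome 3R from 9456815 to 9460652) ranged from 22.2 to 53.9 TPM with a median of 44 TPM at dawn, against 15.7 to 21.8 TPM with a median of 17.4 TPM at dusk. The groups did not overlap, and the lowest dawn value, just above the highest dusk value, came from the ZT02 library of replicate 1. The difference was 1.13 ± 0.19 (SE, adjusted p = 0.0283), and 1.30 without that library (adjusted p = 0.000724). The call held in only 2 of the 12 omissions of 1 library and 13 of 35 alternative settings. The theta-class gene *GstT4* (FBgn0030484, chromosome X from 13404749 to 13409323) ranged from 123 to 177 TPM with a median of 141 TPM at dawn, against 217 to 351 TPM with a median of 245 TPM at dusk. Its groups did not overlap either, and its difference was -0.85 ± 0.15 (SE, adjusted p = 0.0354), with an adjusted p of 0.0867 under median-of-ratios scaling, 0.0714 without the block and 0.0447 without the ZT02 library of replicate 1. Of the 23 GSTs, 20 had a negative difference, with a median of -0.22, against -0.07 over all genes. Without the ZT02 library 18 of the 23 were negative, with a median of -0.16. Over all genes, 33.4% were positive with all libraries and 54% without that library. Within replicate 1, 20 were negative (median -0.33), and within replicate 2, 14 were (median -0.035).

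*ple* encodes tyrosine hydroxylase, which makes L-DOPA for catecholamines and for cuticle pigment and hardening. It was singled out after its values were seen, because it was called although its groups overlapped. Its level (FBgn0005626, chromosome 3L from 6713356 to 6719525) ranged from 3.03 to 14.5 TPM with a median of 8.31 TPM at dawn, against 1.05 to 6.21 TPM with a median of 2.49 TPM at dusk. Within each replicate number all 3 dawn libraries were above all 3 dusk libraries, with 9.35 to 14.5 TPM against 2.91 to 6.21 TPM in replicate 1 and 3.03 to 7.26 TPM against 1.05 to 2.06 TPM in replicate 2. The difference was 1.17 ± 0.21 (SE, adjusted p = 0.0413), and the adjusted p was 0.511 without the block and 0.067 without the ZT02 library of replicate 1.

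Among the called genes, *ELOVL* and *CG10096* belong to families that lengthen or reduce long fatty acyl chains, and they differed in direction. *ELOVL* (FBgn0037534, chromosome 3R from 7981817 to 7995852) belongs to the elongases, which lengthen very-long-chain fatty acids. It ranged from 58.9 to 74.9 TPM with a median of 70.1 TPM at dawn, against 125 to 171 TPM with a median of 137 TPM at dusk. Dawn libraries held about the same level in both replicates, and no dawn library came near a dusk one. The difference was -1.05 ± 0.13 (SE, adjusted p = 0.00354), a level at dawn 0.483 times that at dusk, and it passed in 30 of 35 alternative settings and in all 12 omissions of 1 library. It was -1.06 without the ZT02 library of replicate 1.

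*CG10096* (FBgn0038032, chromosome 3R from 12390166 to 12395980), of the fatty acyl-CoA reductase family that makes fatty alcohols, ran the other way. It ranged from 14.2 to 32.5 TPM with a median of 19.6 TPM at dawn, against 2.07 to 13.6 TPM with a median of 3.17 TPM at dusk. The groups came close but did not overlap, the 2 dusk libraries at ZT14 being the highest of that group with 7.6 and 13.6 TPM. The difference was 1.95 ± 0.34 (SE, adjusted p = 0.0376), and the adjusted p was 0.0694 without the ZT02 library of replicate 1 and 0.0635 without the block. *CG10096* shares exon bases on the same strand with *CG10097*, another member of that family, and the counting may have split reads between them. *CG10097*, named after its values were seen, ranged from 491 to 892 TPM at dawn, against 159 to 585 TPM at dusk, with a difference of 1.10 (adjusted p = 0.137).

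The hairpin entry *mir-2494* (FBgn0262233, chromosome 3R from 16618766 to 16618882) ranged from 41.5 to 138 TPM with a median of 78.9 TPM at dawn, against 20.2 to 32.9 TPM with a median of 29.6 TPM at dusk. The groups did not overlap, with a difference of 1.52 ± 0.22 (SE, adjusted p = 0.0145), and the adjusted p was 0.0359 without the ZT02 library of replicate 1. These libraries were made from poly(A)-selected RNA, so the value is no measure of a mature miRNA. The entry lies on the same strand within an exon of *CG17560*, of the same reductase family, and reads of these overlapping entries cannot be told apart. *CG17560* itself, named after its values were seen, ranged from 541 to 1276 TPM at dawn, against 354 to 899 TPM at dusk, overlapped between groups and had a difference of 0.47 (adjusted p = 0.789).

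The elongase-family gene *CG17821*, also named after its values were seen, ranged from 3.85 to 22.5 TPM at dawn, against 1.68 to 4.92 TPM at dusk. A single dawn value, that of the ZT02 library of replicate 1, fell inside the dusk range. *CG17821*, like *ple*, passed the filter only through the other libraries of this diet. Its difference of 1.83 did not pass with all libraries (adjusted p = 0.054), and it was 2.14 without that library (adjusted p = 0.00634). The limma adjusted p of *CG17821* was 0.049 under median-of-ratios scaling and 0.0818 without the block. *inaE*, which encodes a diacylglycerol lipase, had a difference of 0.91 and *Sgp* one of 1.79, both named after their values were seen and each with an adjusted p of 0.0703. Both passed without the dusk library of replicate 2 at ZT10, with differences of 1.01 for *inaE* and 1.98 for *Sgp* (adjusted p = 0.0477 for both). Under median-of-ratios scaling *inaE* passed (limma adjusted p = 0.0219) and *Sgp* did not (0.0867). Neither passed without the ZT02 library of replicate 1 (limma adjusted p = 0.0747 for *inaE* and 0.139 for *Sgp*). Neither passed without the block (limma adjusted p = 0.49 for *inaE* and 0.439 for *Sgp*).

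Metallothioneins are small cysteine-rich proteins that bind copper, zinc and cadmium. *MtnD* (FBgn0053192, chromosome 3R from 20534962 to 20535301) ranged from 11 to 23.3 TPM with a median of 17.6 TPM at dawn, against 23.9 to 67.9 TPM with a median of 44.6 TPM at dusk. The groups were separated by less than 1 TPM, and within each replicate number the gap was wider, with 20.2 to 23.3 TPM against 38.5 to 67.9 TPM in replicate 1 and 11 to 14.9 TPM against 23.9 to 50.6 TPM in replicate 2. The difference was -1.26 ± 0.19 (SE, adjusted p = 0.0178), and the adjusted p was 0.237 without the block and 0.0359 without the ZT02 library of replicate 1. The other genes of the family were named after their values were seen. The neighbour *MtnE* ranged from 8.57 to 20.4 TPM at dawn, against 25.1 to 69.9 TPM at dusk, with no overlap and a difference of -1.25 that missed the threshold (adjusted p = 0.0678). *MtnA*, by far the most abundant of the family, ranged from 4809 to 12669 TPM at dawn, against 7511 to 13454 TPM at dusk, with a difference of -0.15 (adjusted p = 0.933), which was 0.01 without the ZT02 library of replicate 1. *MtnB* and *MtnC* were under the filter, with medians of 5.06 and 4.36 TPM at dawn, against 6.07 and 17.1 TPM at dusk.

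*CG10345* (FBgn0027562, chromosome 3R from 16597073 to 16604861) belongs to the CD36 family of scavenger receptors, which take up lipids and other ligands. It ranged from 3.85 to 6.09 TPM with a median of 5.59 TPM at dawn, against 8.63 to 18.4 TPM with a median of 12.1 TPM at dusk. Dawn libraries lay close together and below all dusk libraries, with a difference of -1.10 ± 0.16 (SE, adjusted p = 0.0145), with an adjusted p of 0.0181 without the ZT02 library of replicate 1, and the call held in 28 of 35 alternative settings and all 12 omissions of 1 library. It shares exon bases on the opposite strand with *CG14892*, named after its values were seen, which was at 0.13 to 0.25 TPM at dawn and 0.24 to 1.44 TPM at dusk. Reads were counted without regard to strand, so the 2 genes cannot be fully told apart.

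The last 2 called genes have no role that is given here. *CG34180* ranged from 14 to 31.6 TPM with a median of 20.3 TPM at dawn, against 5.95 to 12.6 TPM with a median of 7.69 TPM at dusk, without overlap (difference 1.25 ± 0.23, SE, adjusted p = 0.0497). Its adjusted p was 0.0817 without the block and 0.0447 without the ZT02 library of replicate 1. It shares exon bases on the opposite strand with *ND-51*, which encodes a subunit of respiratory complex I. With reads counted on either strand, these 2 genes cannot be fully told apart. *CG34327*, named after its values were seen, ranged from 13.5 to 70.7 TPM at dawn, against 42.7 to 107 TPM at dusk, and its groups overlapped. It was lower at dawn within each replicate number, with 13.5 to 24.5 TPM against 42.7 to 66.6 TPM in replicate 1 and 53.4 to 70.7 TPM against 84.2 to 107 TPM in replicate 2. Its difference of -1.05 ± 0.19 (SE, adjusted p = 0.0474) had an adjusted p of 0.808 without the block and 0.0825 without the ZT02 library of replicate 1.

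**Figure D1:**
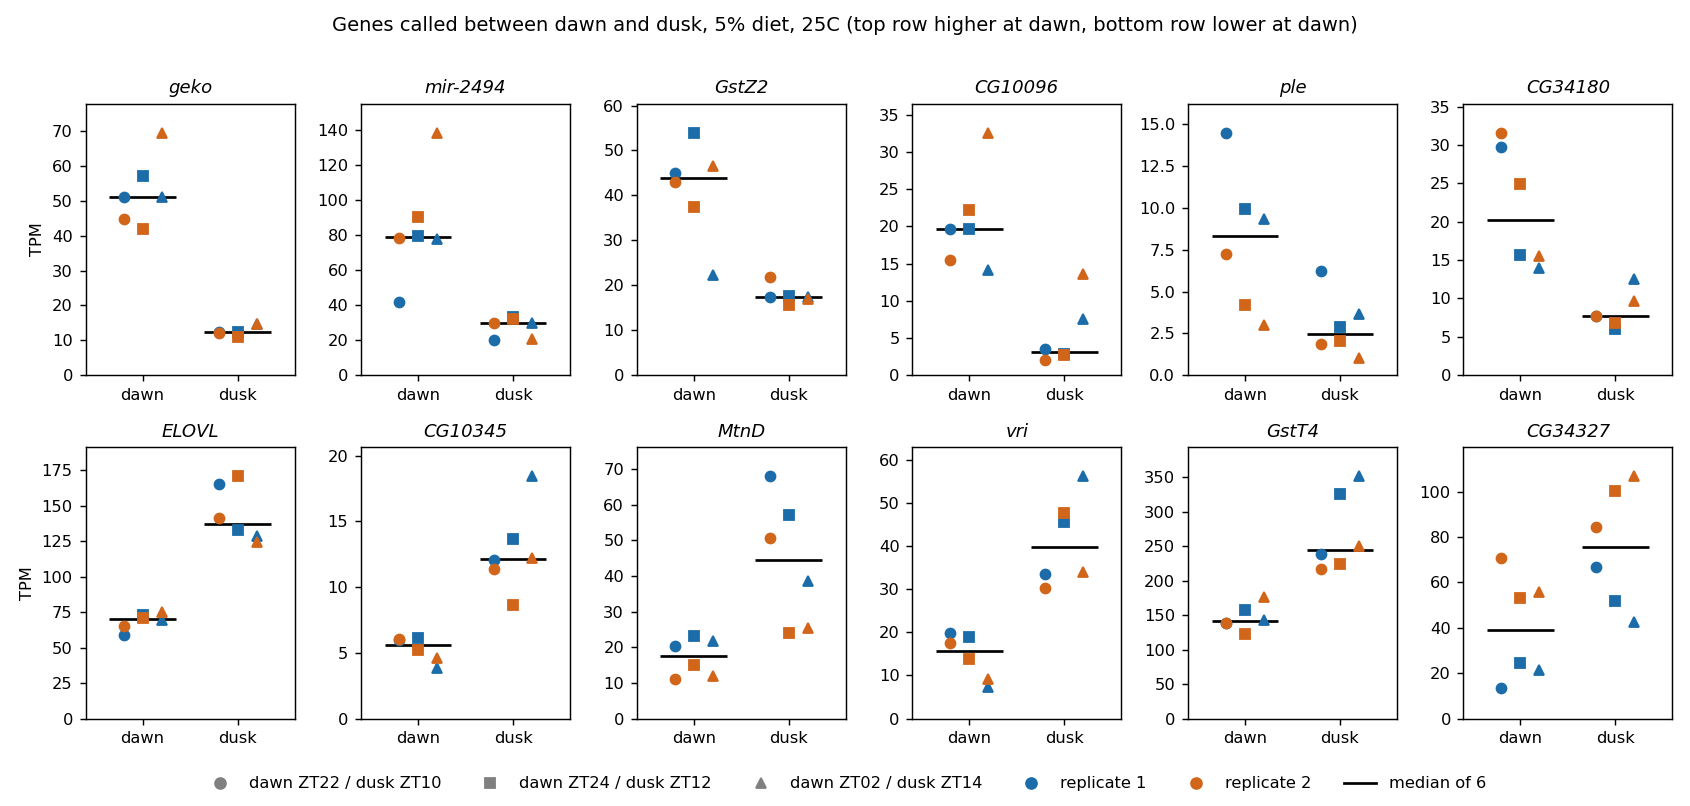
TPM of the 12 called genes in each library, with dawn on the left and dusk on the right of each panel, symbols for the time point, colours for the replicate and a line at the median of 6. In 10 of the 12 panels no dawn value lies within the range of the dusk values, the exceptions being *ple* and *CG34327*, where replicates 1 and 2 sit at different heights.

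Groups that do not overlap were counted over all genes as well. The 6 dawn libraries were all above the 6 dusk libraries for 6 genes (0.0902%) and all below them for 33 genes (0.496%), and 10 of the 12 called genes were among these 39 (0.586%). Calls and overlap were taken from the same values, so this is no separate support for the calls. Among the 33 were the copper chaperone gene *Ccs*, with a difference of -0.46, the peroxidase gene *PHGPx*, with -0.48, and the sterol-binding protein gene *Npc2b*, with -0.55, none of which passed the adjusted threshold (adjusted p = 0.184, 0.198 and 0.198). These 3 were chosen after their values were seen.

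Of the core clock genes, *vri* was the single one called. *vri* encodes the bZIP repressor of *Clk* (FBgn0016076, chromosome 2L from 5288944 to 5311223). It ranged from 7.26 to 19.8 TPM with a median of 15.8 TPM at dawn, against 30.2 to 56.1 TPM with a median of 39.8 TPM at dusk. Dawn and dusk did not overlap, and the 2 lowest dawn values were those of ZT02, at 7.26 and 9.11 TPM. The difference was -1.50 ± 0.24 (SE, adjusted p = 0.0254), and -1.30 without the ZT02 library of replicate 1 (adjusted p = 0.0233).

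*per*, whose protein represses CLK and CYC, had a median below 5 TPM and was tested on its own. It ranged from 1.3 to 2.99 TPM with a median of 2.07 TPM at dawn, against 3.02 to 5.65 TPM with a median of 3.98 TPM at dusk. The groups touched without overlapping, and an exact two-sided permutation test within replicate numbers gave p = 0.005, the smallest that its 400 relabellings can give, or 0.075 after adjustment over 15 single values. *per* shares exon bases on the opposite strand with *dyw*, named after its values were seen, which was at 0.58 to 1.56 TPM at dawn and 0.27 to 1.46 TPM at dusk. Counting on either strand does not fully tell them apart.

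*Clk*, which encodes the activator, was also under the filter. It ranged from 3.53 to 8.33 TPM at dawn, against 2.08 to 6.83 TPM at dusk, with overlapping groups (exact permutation p = 0.38, adjusted p = 0.75). The other 5 core clock genes overlapped as well. *Pdp1*, encoding the activator of *Clk*, had medians of 25.7 TPM at dawn and 40.2 TPM at dusk, with a difference of -0.55 (adjusted p = 0.597). *tim*, encoding the partner of PER, had medians of 68 TPM at dawn and 63.3 TPM at dusk. Its difference of -0.15 (adjusted p = 0.976) became 0.11 without the ZT02 library of replicate 1, since its 2 dawn libraries at ZT02, with 24.9 and 26.6 TPM, were far below the other 4, at 62.3 to 84.6 TPM. The photoreceptor gene *cry* had a difference of -0.30, the repressor gene *cwo* one of -0.28 and *cyc*, the partner of *Clk*, one of -0.08, and none was called. All 6 core clock genes that passed the filter had a negative difference, with a median of -0.29, against -0.07 over all genes, and *tim* was positive without the ZT02 library. The median was -0.23 without that library, -0.35 within replicate 1 (6 of 6 negative) and -0.23 within replicate 2 (4 of 6 negative).

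**Figure D2:**
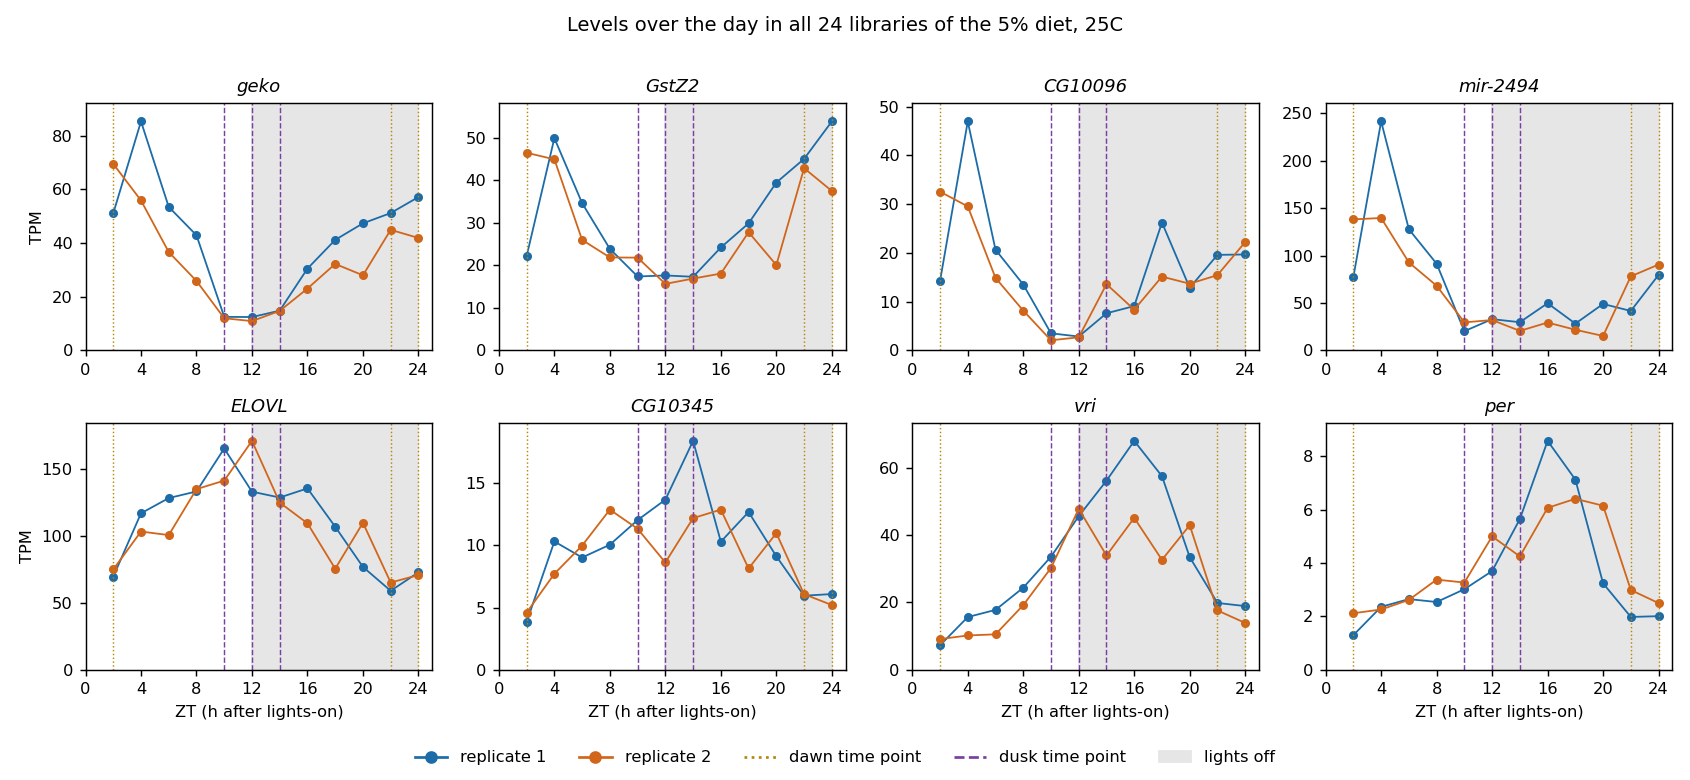
TPM against time of day for 8 genes in all 24 libraries of the 5SY flies, one line per replicate, with lights-off shaded and the dawn and dusk time points marked by dotted and dashed lines. *geko*, *GstZ2* and *CG10096* are lowest around lights-off and have their highest mean at ZT04, while *vri* and *per* are low around lights-on and have their highest mean at ZT16.

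The dawn and dusk time points were not at the extremes for every gene. Over the 12 time points, the mean of the 2 replicates was highest at ZT04 for *GstZ2* (47.5 TPM), *CG10096* (38.2 TPM) and *mir-2494* (190 TPM), within the hours that follow the dawn window. For *ELOVL* it was highest at ZT10 (153 TPM) and lowest at ZT22 (62 TPM), and for *CG10345* highest at ZT14 (15.3 TPM) and lowest at ZT02 (4.23 TPM). *vri* was highest at ZT16 (56.5 TPM) and lowest at ZT02 (8.19 TPM), and *per* was highest at ZT16 (7.33 TPM) and lowest at ZT02 (1.71 TPM). *ple* was highest at ZT20 (11.4 TPM). These are means of 2 libraries each and were not tested against each other.

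The 8 libraries next to the 2 windows were compared in the same way, ZT20 and ZT04 against ZT08 and ZT16. They entered the median TPM filter but not the fit that made the calls. Among all 6653 genes 1 passed (0.015%), *CG32641* (limma adjusted p = 0.00798), which was not among the 12 and is named after its values were seen. It averaged 14.9 TPM at ZT20 and 7.78 TPM at ZT04 and was listed at 0 in all 4 libraries at ZT08 and ZT16. Without replicate 1 no gene passed there (245 with an unadjusted p below 0.05 in limma), and without replicate 2 62 did. At an unadjusted p below 0.05 there were 173 genes (2.6%). All 12 called genes had the same sign there as between dawn and dusk, a sign that 56.9% of all genes tested kept, and 53.2% of all genes were higher on the dawn side. Of the 12, 4 had an unadjusted p below 0.05 in limma, *geko* (difference 0.74), *GstZ2* (0.72), *CG10096* (1.14) and *ple* (0.87), and none passed after adjustment. *ple* passed the filter only through libraries outside the 2 windows, so its value here is no independent support. *geko* was at 28 to 85.3 TPM at ZT20 and ZT04, against 23 to 42.9 TPM at ZT08 and ZT16, so the ranges overlapped. *vri* was at 10.2 to 42.9 TPM at ZT20 and ZT04, against 19.2 to 67.9 TPM at ZT08 and ZT16 (difference -0.63, not below 0.05 unadjusted).

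On the 15SY diet, the same windows gave 6 calls among the same genes (0.0902%), 4 higher (0.0601%) and 2 lower at dawn (0.0301%), and 616 genes (9.26%) had an unadjusted p below 0.05. Of the 6, 5 were also called on 5SY, namely *geko*, *GstZ2*, *mir-2494*, *CG10096* and *CG10345*. The other was *CG42662*, named after its values were seen, with a difference of -1.22 on 15SY (adjusted p = 0.0394) and -0.77 on 5SY (adjusted p = 0.0678). On 15SY no gene was called in limma within replicate 1 alone (245 with an unadjusted p below 0.05) or within replicate 2 alone (157 genes). *geko* ranged from 38.9 to 51 TPM at dawn, against 8.39 to 20.4 TPM at dusk on 15SY, with a difference of 1.70 (limma adjusted p = 0.00166). *ELOVL* ranged from 43.8 to 77.9 TPM at dawn, against 88.4 to 115 TPM at dusk on 15SY, with a difference of -0.64 that did not pass (adjusted p = 0.207). *vri* ranged from 8.41 to 23.9 TPM at dawn, against 24.4 to 57 TPM at dusk on 15SY, with a difference of -1.29 (adjusted p = 0.197). All 12 genes had the same sign on both diets, against 55.6% of all genes tested, and 11 had an unadjusted p below 0.05 on 15SY.

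The difference between the diets was tested itself. No gene passed the adjusted threshold in limma (0%), and 188 genes (2.83%) had an unadjusted p below 0.05, as had 1 of the 12 called genes, *ELOVL*, with a dawn minus dusk difference lower by 0.41 ± 0.17 (SE) on 5SY than on 15SY (limma adjusted p = 0.847). The 5 genes with the smallest p were *snoRNA:Or-CD15*, *CG10469*, *CG12123*, *mfas* and *Cyp4s3*. For *snoRNA:Or-CD15* the dawn minus dusk difference was 0.74 on 5SY and -0.57 on 15SY (limma adjusted p = 0.847 for the difference between diets). It shares exon bases with the ribosomal protein gene *RpL23A* and the host gene *Uhg7*. For *CG10469* the difference was -0.74 on 5SY and 1.03 on 15SY, for *mfas* it was -0.19 and 0.50, for *CG12123* it was -0.26 and 0.44, and for the cytochrome P450 gene *Cyp4s3* it was -0.45 and 0.41, all with the same adjusted p of 0.847 for the diet difference.

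In *Clk-Jrk* flies on 15SY, dawn and dusk libraries at ZT22, ZT02, ZT10 and ZT14 gave no call in limma (0%), and 293 genes (4.4%) had an unadjusted p below 0.05. *geko* was at 43.4 to 71.5 TPM at dawn and 44.2 to 56.3 TPM at dusk in *Clk-Jrk*, so that all 8 libraries lay in or near the range of the 5SY dawn libraries. *GstZ2* was at 47.2 to 68.4 TPM at dawn and 49.2 to 69.9 TPM at dusk, and *mir-2494* at 168 to 239 TPM at dawn and 189 to 241 TPM at dusk, in both cases in all 8 libraries above the median of the 5SY dawn libraries. *vri* was at 1.66 to 4.04 TPM at dawn and 2.56 to 5.71 TPM at dusk, below every 5SY dawn library. *ple* was at 3.26 to 7.9 TPM at dawn and 6.98 to 17.9 TPM at dusk, with a difference of -1.03 (limma adjusted p = 0.744), the opposite sign to that on 5SY.

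Against *Clk-Jrk* at the 4 matched time points, the dawn minus dusk difference on 5SY was larger by 1.84 for *geko*, by 2.22 for *ple*, by 1.70 for *mir-2494* and by 1.09 for *GstZ2*, and it was lower by 1.25 for *CG10345*, each with an unadjusted p below 0.05 for the difference from *Clk-Jrk*, as had another 5 of the 12 genes. The 12 were chosen by their difference on 5SY, which is one side of this comparison and of that between diets. None passed after adjustment over all genes in limma (adjusted p = 0.0676 for *geko* and 0.61 to 0.962 for the other 4 genes named), and 190 genes (2.86%) had an unadjusted p below 0.05. Of the 12 called genes, 8 had the same sign in *Clk-Jrk*, against 54.9% of all genes tested. Genotype and diet differ together here and cannot be told apart.

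**Figure D3:**
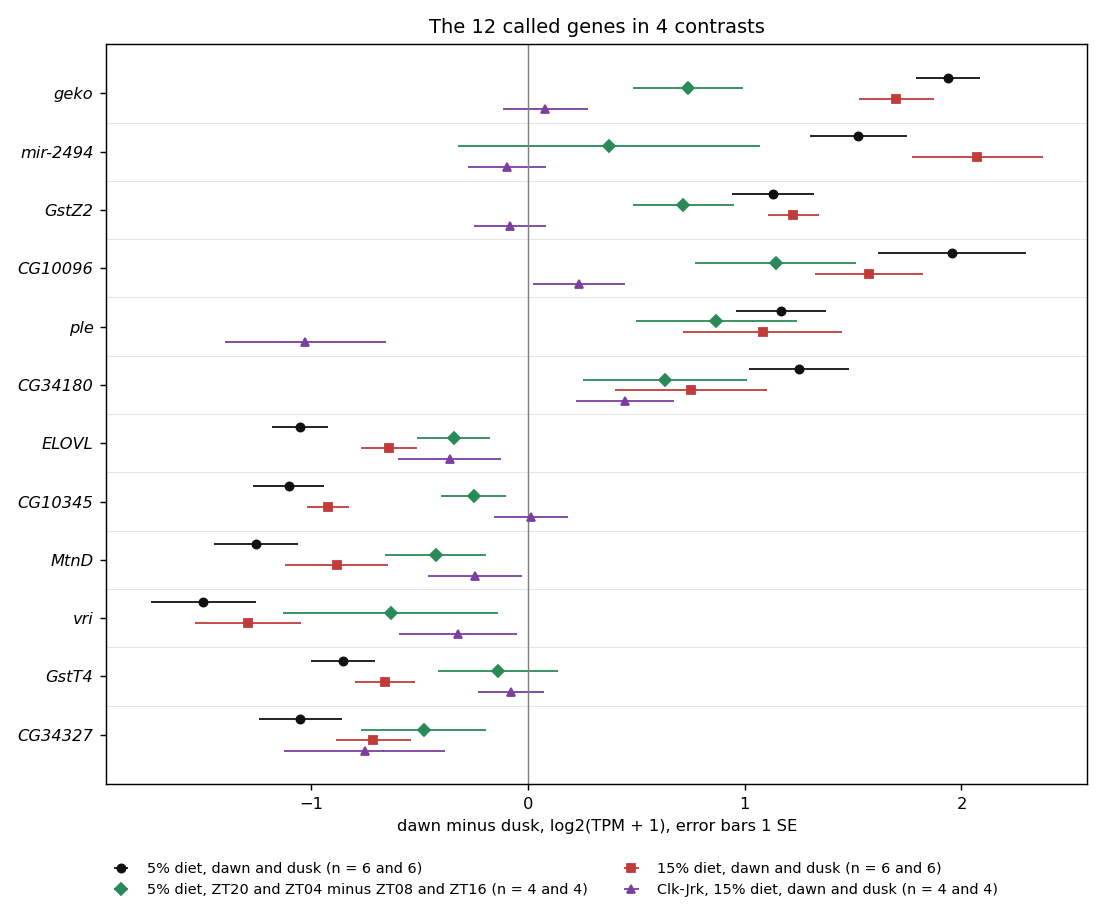
Dawn minus dusk difference of log2(TPM + 1) with 1 SE for the 12 called genes in the 5SY libraries, the neighbouring 5SY time points, the 15SY libraries and *Clk-Jrk*. The 5SY, neighbouring and 15SY points lie on one side of 0 for each gene, while *Clk-Jrk* points lie near 0 for *geko*, *mir-2494*, *GstZ2* and *CG10345* and on the opposite side for *ple*.

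Gene lists for clock, metabolic, immune and housekeeping functions were described by their counts and medians, beside the median of -0.07 over all genes. Of 33 lists, 3 held a called gene, the core clock, the GSTs and amino acid breakdown, whose called member was *GstZ2* again. The median was negative for 24 lists, and for 21 without the ZT02 library of replicate 1. The 2 replicates differed in this respect: within replicate 2 alone (fit without replicate 1) 64.3% of all genes were on the positive side, with a median of 0.09, and within replicate 1 alone (fit without replicate 2) 13.2% were, with a median of -0.22. The median of the members was negative in both replicates for 18 lists, positive in both for 3 and of opposite sign in the 2 replicates for 12.

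The proteasome degrades proteins tagged with ubiquitin. All 32 subunit genes tested had a negative difference, with a median of -0.37 and a range from -0.83 to -0.22. Of these, 25 had an unadjusted p below 0.05, against 6.4% of all genes on the lower side, and none passed the adjusted threshold. *Prosbeta7*, encoding a core subunit, ranged from 223 to 416 TPM at dawn, against 405 to 475 TPM at dusk (difference -0.45, adjusted p = 0.395), and *Prosalpha7* from 172 to 299 TPM at dawn, against 280 to 337 TPM at dusk (difference -0.43, adjusted p = 0.407). Without the ZT02 library all 32 were still negative, with a median of -0.31 and 25 below 0.05. All 32 were also negative under median-of-ratios scaling and within each replicate number. The medians were -0.59 in replicate 1 and -0.16 in replicate 2, against -0.22 and 0.09 over all genes. The list's median was -0.19 in the neighbouring time points and -0.04 on 15SY, against 0.012 and 0.13 over all genes.

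The pentose phosphate pathway supplies NADPH for fat synthesis. All 7 genes had a negative difference, with a median of -0.43. Of these, 4 had an unadjusted p below 0.05, against 6.4% of all genes on the lower side, but none passed the adjusted threshold. *Pgd*, encoding 6-phosphogluconate dehydrogenase, ranged from 146 to 410 TPM at dawn, against 335 to 550 TPM at dusk (difference -0.73, adjusted p = 0.161). *Zw*, encoding glucose-6-phosphate dehydrogenase, ranged from 48 to 114 TPM at dawn, against 92.9 to 158 TPM at dusk (difference -0.70, adjusted p = 0.204). All 7 were negative under median-of-ratios scaling too, as were 7 of 7 in replicate 1 (median -0.56) and 6 of 7 in replicate 2 (median -0.31). The list's median was -0.38 without the ZT02 library, -0.31 in the neighbouring time points and -0.15 on 15SY. Over all genes these medians were 0.017, 0.012 and 0.13.

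Genes of fat synthesis leaned the same way between dawn and dusk, with 3 exceptions, but their list medians were not negative in the neighbouring time points. There the median was 0.053 for triglyceride and phospholipid synthesis and 0.008 for fatty acid synthesis and desaturation, against 0.012 over all genes. On 15SY the medians of the 2 lists were -0.086 and -0.092, against 0.13 over all genes. Of 16 genes of triglyceride and phospholipid synthesis, 15 had a negative difference, with a median of -0.29 over the list, and none was called. Of the 15, 7 were below 0.05 unadjusted, against 6.4% of all genes on the lower side. Without the ZT02 library the median was -0.14, and 13 were negative, and 14 were negative under median-of-ratios scaling. Within replicate 1 the median was -0.41 and within replicate 2 it was -0.18. *Lpin*, encoding a phosphatidate phosphatase, had medians of 49.1 TPM at dawn and 62.9 TPM at dusk (difference -0.47, adjusted p = 0.321), and *Pcyt1*, encoding an enzyme of phosphatidylcholine synthesis, 45.7 and 65.8 TPM (difference -0.52, adjusted p = 0.3). The exception in that list was *mdy*, encoding a diacylglycerol acyltransferase that makes triglyceride and named after its values were seen, with 55.4 to 158 TPM at dawn, against 41.6 to 76.3 TPM at dusk (difference 0.69, adjusted p = 0.431). Without the ZT02 library of replicate 1 the difference of *mdy* was 0.90 and passed (adjusted p = 0.0319). It did not pass under median-of-ratios scaling (limma adjusted p = 0.0867), without the block (0.808) or without the dusk library of replicate 2 at ZT10 (0.414). Of 17 genes of fatty acid synthesis and desaturation, 15 were negative with a median of -0.16, which was -0.11 without the ZT02 library (12 negative), -0.37 within replicate 1 and -0.10 within replicate 2. The 2 positive genes were *bgm*, an acyl-CoA synthetase gene, at 0.26 and *Idh* at 0.03, both named after their values were seen, and the negative ones were led by *Acbp2*, an acyl-CoA binding protein gene, at medians of 1827 TPM at dawn and 2868 TPM at dusk (difference -0.69, adjusted p = 0.147), and *Men*, encoding the malic enzyme, at -0.52 (adjusted p = 0.477). *Desat1*, encoding the main fatty acid desaturase, had medians of 3011 TPM at dawn and 4305 TPM at dusk (difference -0.48, adjusted p = 0.497).

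Ribosome biogenesis and aminoacyl-tRNA synthetases, which build ribosomes and charge tRNAs, leaned the other way. Of 19 ribosome biogenesis genes, 18 had a positive difference, with a median of 0.35, and 1 had an unadjusted p below 0.05, *RpI1*, encoding the largest subunit of RNA polymerase I, with medians of 14.6 TPM at dawn and 11.9 TPM at dusk (difference 0.50, adjusted p = 0.62). *l(3)72Dn* had a difference of 0.50 (adjusted p = 0.691). Under median-of-ratios scaling 18 were positive and 10 of the 19 were below 0.05 unadjusted. Over all 6653 genes, 338 were higher and 373 lower below 0.05 under that scaling. Within replicate 1, 10 of the 19 were positive (median 0.05), and within replicate 2, 18 were (median 0.68). Of 18 aminoacyl-tRNA synthetases, 17 were positive, with a median of 0.16 and none below 0.05, led by *IleRS* at 0.26 and *GlnRS* at 0.22, and under that scaling all 18 were positive and 9 below 0.05. Within replicate 1, 2 of the 18 synthetases were positive (median -0.14), and within replicate 2 all 18 were (median 0.41). None of either list was called with all libraries and TPM as deposited. Leaving out the ZT02 library of replicate 1 kept 18 of the 19 ribosome biogenesis genes positive (median 0.39, 3 below 0.05 unadjusted in limma). All 18 synthetases were positive in that fit (median 0.24, 2 below 0.05), as were 54% of all genes. The medians of the 2 lists were 0.04 and -0.03 in the neighbouring time points and 0.33 and 0.30 on 15SY, where the median over all genes was 0.13.

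The remaining lists held small differences. Cytosolic ribosomal proteins, which are among the most abundant messages, had a median of -0.15 over 83 genes, with none below 0.05 unadjusted and *RpL23* and *RpS21* at -0.31 and -0.28. Mitochondrial ribosomal proteins had a median of 0.02 over 73 genes, with *mRpL54* and *mRpL53* both at 0.20, and oxidative phosphorylation subunits had one of -0.08 over 61 genes, with *ATPsynF* and *UQCR-C2* at -0.28 and -0.32. Glycolysis had a median of -0.28 over 13 genes (-0.26 without the ZT02 library, -0.41 within replicate 1 and -0.076 within replicate 2), with *Pglym78* and *Pgk* at -0.38 and -0.34. Of 20 genes of mitochondrial beta-oxidation, which burns fatty acids, 16 were negative, with *Had1* and *CG2765* at -0.50 and -0.40, and of 20 genes of insulin, FOXO and TOR signalling 16 were negative, with *Thor*, encoding the translation repressor 4E-BP, at -0.53 and *Sesn* at -0.37. In the fit without the ZT02 library 14 and 12 of these were negative. Over all genes, 33.4% were positive with all libraries and 54% in that fit. Within replicate 1 all 20 beta-oxidation genes were negative (median -0.33), whereas within replicate 2 15 of the 20 were positive (median 0.056). Over all genes, 13.2% were positive in replicate 1 and 64.3% in replicate 2. The insulin, FOXO and TOR list had medians of -0.11 within replicate 1 and -0.20 within replicate 2. The sign of the median also differed between replicates for the large housekeeping lists. It was -0.38 in replicate 1 and 0.08 in replicate 2 for cytosolic ribosomal proteins, -0.27 in replicate 1 and 0.34 in replicate 2 for mitochondrial ribosomal proteins, and -0.39 in replicate 1 and 0.17 in replicate 2 for oxidative phosphorylation subunits. These 3 medians were -0.10, 0.095 and -0.027 without the ZT02 library.

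Cytochrome P450 genes, which oxidise lipids, hormones and toxins, were 45 in number. Of these, 37 were negative with all libraries (median -0.15) and 26 without the ZT02 library (median -0.027). Over all genes, 33.4% were positive with all libraries and 54% without that library. The median was -0.21 within replicate 1 and -0.11 within replicate 2. *Cyp18a1*, which inactivates the steroid hormone ecdysone, did not overlap between groups, with 9.79 to 14.9 TPM at dawn, against 15.8 to 23.6 TPM at dusk (difference -0.56, adjusted p = 0.168). *Cyp6a21* had medians of 18.8 TPM at dawn and 8.76 TPM at dusk (difference 0.80, adjusted p = 0.286). Of the UDP-glycosyltransferases, which attach sugars to small molecules, *Ugt36D1* did not overlap either, with 47.3 to 69.5 TPM at dawn, against 18.1 to 43.7 TPM at dusk (difference 0.91, adjusted p = 0.147), while *Ugt301D1* had a difference of -0.43 (adjusted p = 0.477). *ref(2)P*, encoding the p62 autophagy receptor, had medians of 340 TPM at dawn and 537 TPM at dusk (difference -0.59, adjusted p = 0.189), and *Atg3* had a difference of -0.34.

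Of 15 immune peptide genes, 12 had a negative difference (median -0.13) and none had an unadjusted p below 0.05. Without the ZT02 library 9 were positive (median 0.057). The positive share over all genes was 33.4% with all libraries and 54% without that one. The median of the list was -0.27 within replicate 1 and 0.01 within replicate 2. The most positive was *Mtk*, encoding metchnikowin and named after its values were seen, at 0.90 (adjusted p = 0.876). Of 8 peptidoglycan recognition genes, 6 were negative, with differences from -0.71 to 0.38. Among these recognition genes, *PGRP-LA* and *PGRP-LB* had differences of -0.53 and -0.71 (adjusted p = 0.198 and 0.441), and the peptide genes *BomS3* and *BomT1* had -0.50 and -0.75. The antioxidant enzyme genes *Cat* and *Sod1* had differences of -0.34 and -0.39, and the serpin genes *Spn55B* and *Spn28Dc* had -0.50 and -0.47. Heat shock genes spread widely within each window, with *Hsp70Ab* at 14.8 to 260 TPM at dawn, against 0 to 222 TPM at dusk (difference 2.08, adjusted p = 0.771), and *Hsp68* at 10.4 to 60.5 TPM at dawn, against 4.27 to 79 TPM at dusk (difference 0.75). Of known rhythmic fat genes, *Fmo-2* had medians of 70.2 TPM at dawn and 59.7 TPM at dusk (difference 0.61, adjusted p = 0.402). The trehalose synthesis gene *Tps1*, the hormone receptor gene *ERR*, the TGF-beta ligand gene *daw* and the secreted peptide gene *Gbp1* had differences of -0.35, -0.30, -0.47 and -0.21, and none passed. No call was made, either, for the clock factors *sgg* (-0.26) and *jet* (-0.16), the sugar sensor partner *bigmax* (-0.35), the glycogen primer *Gyg* (-0.19), the yolk and lipid carriers *Yp3* (-0.28) and *apolpp* (-0.36), *CG10621* (-0.76) and *Prat* (0.33) of one-carbon and nucleotide metabolism, the stress genes *Xbp1* (-0.23) and *CG2918* (0.24), glutamine synthetase *Gs1* (-0.38), the nuclear receptor gene *Eip75B* (-0.35) and the lipase gene *CG17292* (-0.41).

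**Figure D4:**
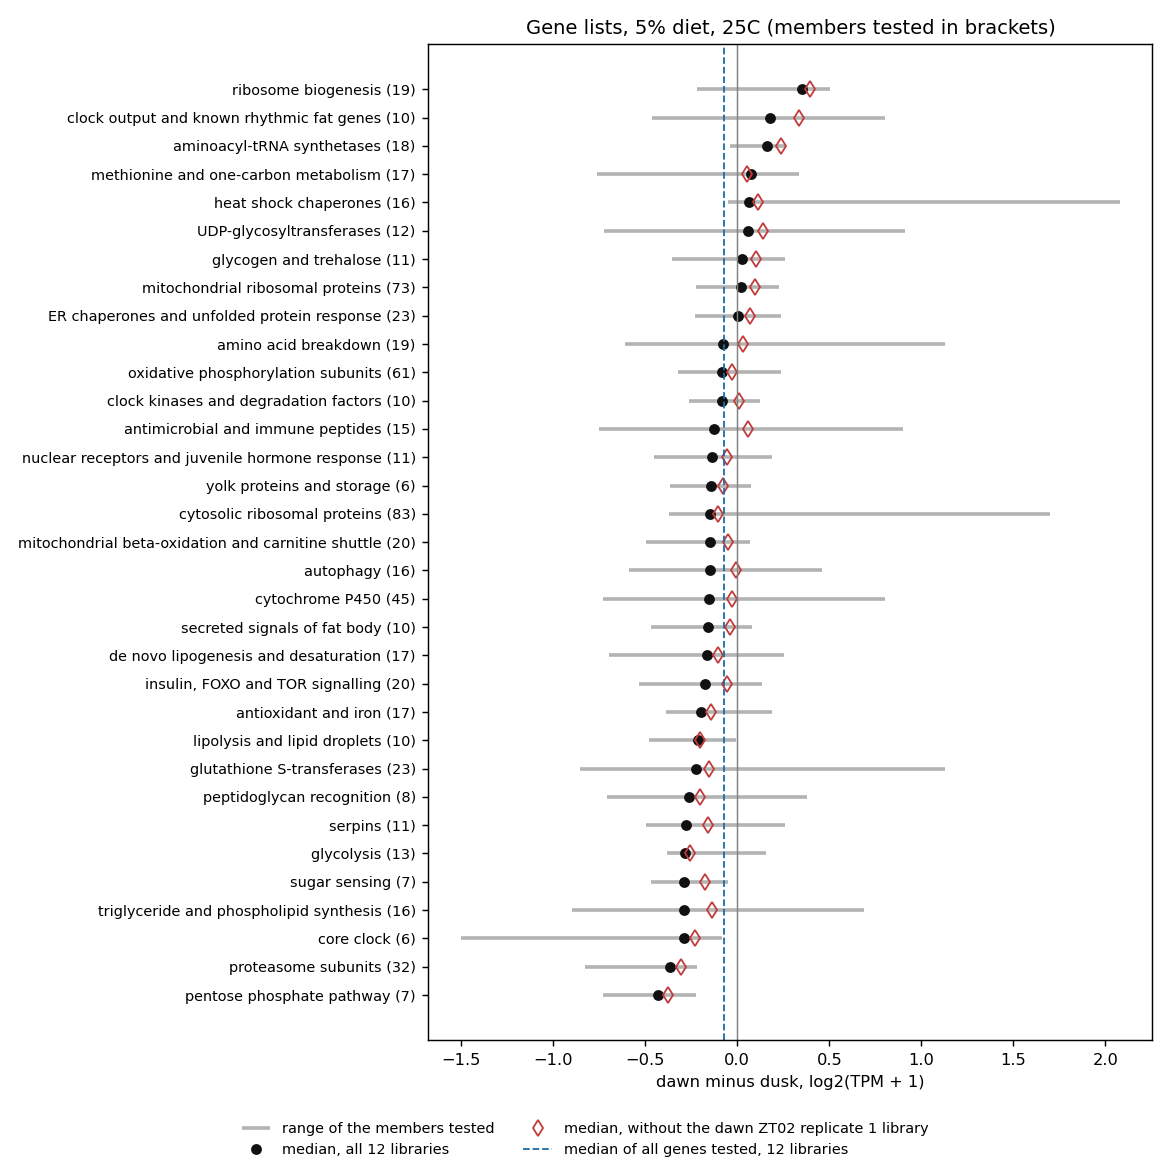
Dawn minus dusk difference of log2(TPM + 1) for 33 gene lists, as the median with all 12 libraries (filled), the median without the ZT02 library of replicate 1 (open) and the range of the members tested (bar), with the median of all 6653 genes as a dashed line. Proteasome and pentose phosphate bars lie wholly below 0, and the ribosome biogenesis median of 0.35 is the highest.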

How the data were processed

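Fat body RNA was sequenced by the authors as single-end, poly(A)-selected libraries (FastQC and Atropos, STAR 2.7.10a, RSEM 1.3.1, with BDGP6 named in the submitters' processing notes), counted on either strand with duplicates kept, and the authors deposited TPM for 23932 features. Library totals and read counts were not analysed here, so depth is unknown. From the deposited TPM, log2(TPM + 1) was fitted with limma 3.58.1 in R 4.3.3 on the 12 dawn and dusk libraries, with replicate number as a block, for the 6653 features whose median TPM exceeded 5 on this diet (24 libraries), and p-values were adjusted by Benjamini-Hochberg over all of them (threshold 0.05). Fold changes on this scale understate low genes. Replicates of a number deviated together (correlations of 0.213 to 0.576, median 0.404, over 15 pairs of time points), so the numbers were taken to pair the libraries. Nothing in the labels says that replicates came from separate cultures, so p-values measure only the spread between these samples. Single values were compared by exact permutation within replicate numbers. Genes were named if they belonged to the core clock, were called without overlap between groups (up to 10 per direction), had the smallest p in a list (2 to 4 per list) or had one of the 5 smallest p for the diet difference, and others are marked in the text. Members and lists were chosen with earlier results of these data known. Positions are from the Ensembl annotation of the same fly assembly, in which 17790 of 17869 FlyBase genes matched. The fit was tested on simulated data. Alternatives covered the block, pseudocount, filter, scaling, time points, limma options and the omission of each library and replicate number. Libraries at 18°C were not used.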

Additional observations from a re-analysis of the deposited data

Results flagged for a closer look

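Among 200 groups of 6 libraries examined on a log2 scale (95 of the genes named, the shares of ribosomal RNA, mitochondrial and most abundant features, and the gut and ovary marker sums, at dawn and at dusk), 9 held a library whose distance from the nearest of the other 5, as a share of the group's range, was over Dixon's 95% limit for 6 values. That is 4.5% of the groups, where chance gives about 1 in 20, and 4 of the 9 were the dawn library of replicate 1 at ZT02. That library held 34.7% ribosomal RNA, against 0.43% to 0.789% in the other dawn libraries. Its *Thor* level was 324 TPM, against 598 to 779 TPM in the other dawn libraries, its *Gbp1* level 75.6 TPM, against 113 to 135 TPM, and its *Atg3* level 29.9 TPM, against 40.5 to 46.9 TPM.

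The other 5 were spread over 4 libraries. The dawn library of replicate 2 at ZT22 had *MtnC* listed at 0 TPM, against 2.42 to 5.61 TPM in the other dawn libraries. The dusk library of replicate 1 at ZT10 had *Desat1* at 3014 TPM, against 4255 to 4712 TPM, and *Atg3* at 46.2 TPM, against 51.1 to 54.3 TPM in the other dusk libraries. The dusk library of replicate 2 at ZT10 had *GstZ2* at 21.8 TPM, against 15.7 to 17.6 TPM, and that of replicate 2 at ZT14 had *Clk* at 2.08 TPM, against 4.55 to 6.83 TPM in the other dusk libraries. No difference between the diets, or between 5SY wild type and *Clk-Jrk*, passed the adjusted threshold in limma with the block (188 and 190 genes had an unadjusted p below 0.05).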

How the results depend on the processing

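Of 12 called genes, 6 were higher and 6 lower at dawn. Fits without the replicate block, which leave out the pairing by replicate number, called 3 higher and 3 lower, all among the 12. For the difference from *Clk-Jrk*, 1 gene, *geko*, passed without it. The fits without the block gave 1 call in the neighbouring libraries, 5 on 15SY and 0 for the diet difference (106 genes with an unadjusted p below 0.05 in limma). Unadjusted counts below 0.05 were 36 higher and 283 lower between dawn and dusk and 28 in the neighbouring libraries without the block, against 56, 426 and 173 with it.

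The number called depended on most settings. There were 3 higher and 5 lower with a pseudocount of 0.1, and 10 higher and 3 lower under median-of-ratios scaling. The filter at a median TPM of 1 gave 2 higher and 3 lower, and no filter gave 1 and 1. With the filter over the 12 libraries alone there were 4 higher and 5 lower, all among the 12 genes. *ple*, *CG34180* and *CG34327* were not among them. There were 12 higher and 7 lower with all 24 libraries in the fit, and 8 higher and 14 lower with limma's trend and robust options. By time point, there were 2 higher and 1 lower for ZT22 and ZT02 against ZT10 and ZT14, and 3 and 1 for ZT24 against ZT12. Without ZT22 there were 2 and 3, and without ZT24 1 and 0 (40 and 375 at an unadjusted p below 0.05 in limma). Leaving out ZT02 gave 11 and 8, leaving out ZT12 3 and 2, and leaving out ZT14 2 and 2. In each of the first 2 of these comparisons only 1 of the 12 genes was among the calls, *geko* and *CG10096* in turn. Tried after the data were seen, leaving out ribosomal RNA features gave 13 higher and 8 lower. Median-of-ratios scaling without the ZT02 library of replicate 1, also tried then, gave 7 higher and 3 lower. With a library or a replicate number left out, 0 to 12 were higher and 0 to 8 lower. In the neighbouring libraries, 0 genes passed without replicate 1 and 62 without replicate 2, and on 15SY 0 passed without either. The cause was not tested.

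Of the named genes, sign changes touched only those that were not called. *MtnA* had 0.21 for ZT24 against ZT12, 0.048 without ZT02, and -0.30 to 0.014 with a library or replicate left out. *tim* had 0.36 without ZT02, 0.093 without ZT14, 0.084 under the scaling without the ZT02 library, and -0.32 to 0.11. For ZT24 against ZT12, *Yp3* had 0.11, *Gbp1* 0.0063 and *CG10469* 0.25. *cyc* had 0.014 without ribosomal RNA features and -0.36 to 0.19 with a replicate left out. In such omissions *RpS21* ranged from -0.61 to 0.039, *CG2918* from -0.0091 to 0.49, *jet* from -0.46 to 0.14, *ATPsynF* from -0.60 to 0.031, *UQCR-C2* from -0.69 to 0.043 and *mfas* from -0.43 to 0.058. The cause was not tested. TPM holds no counts, so what depth limits cannot be given, and with 2 libraries per time point no single time was tested alone.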
